A study of Bos taurus with 6 samples.

Results

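The circular RNAs (circRNAs) described here come from genes of the extracellular matrix, from the integrins that bind it, and from the PDGF ligand and receptor genes that go with matrix-making cells. They were chosen by the gene symbol in the deposited annotation. A circRNA was taken if the symbol of its host gene was that of a collagen, laminin, fibrillin, numbered integrin chain (ITGA or ITGB plus a digit) or ADAMTS gene (ADAMTS5 and ADAMTS9 aside), or 1 of 13 named genes. Integrin chains with a letter are thus outside the set: ITGAV, ITGAL and ITGAM had 4, 5 and 4 reads. This gave 165 of 14274 circRNAs, from 49 gene symbols on 50 of 4790 annotated gene identifiers. The annotation gives the symbol LAMC1 to 2 identifiers at different loci, on chromosomes 16 and 22. Of the 13 named genes, 8 had a circRNA in the table, and FN1, LUM, LOX, POSTN and PDGFRA had none. COL4A3BP and ITGB1BP2 met only the spelling of the rule (COL4A3BP is an older symbol of CERT1, a lipid transfer protein gene). They gave 3 circRNAs with 9 reads and are counted with the rest.

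The study sequenced circRNAs of subcutaneous fat from Qinchuan cattle collected at an abattoir, to compare 2 ages. The groups were 3 calves of 6 months and 3 adults of 24 months, with no treatment given in the labels. The labels list 6 samples and do not say that each is a different animal, so p-values measure the spread between these samples. In whole tissue, fewer cells of a type and less RNA per cell cannot be told apart.

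A circRNA forms when a splice site joins one that lies upstream of it, which closes the exon or exons between them into a ring with no free end. The basement membrane is a sheet of laminins, collagen IV, nidogen and perlecan that surrounds each fat cell and each capillary, and integrins are the paired alpha and beta receptors by which cells hold on to it. Fibrillar collagens and their associated glycoproteins make the interstitial matrix, ADAMTS enzymes cut matrix proteins, and PDGF-D is a secreted ligand of the PDGF receptor beta, which marks pericytes and progenitor cells of fat.

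The libraries held 35616 to 39573 junction reads in calves and 37946 to 47298 in adults. A junction read is a read across the back-splice, and CPM below is junction reads per 1000000 junction reads of the library, with no length term, since a junction is a single point. Of 14 fat cell markers 7 had circRNAs, among them ADIPOQ and CD36, and PLIN1, LEP, CIDEC, CIDEA, FABP4, LIPE and PNPLA2 had none in the table. Adult 2 stood apart in skeletal muscle marker genes, with a summed 6279 CPM against 0 to 80.6 in the other 5 libraries. Adult 3 stood apart in the macrophage gene ADGRE1, with 457 reads against 2 to 72, while CD163 and ITGAM had at most 3 reads in a library and the other 10 of 13 immune markers had none. Epithelial marker genes had no circRNA.

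The matrix and integrin circRNAs were a small and thinly read set, and their summed share of the reads overlapped between the ages. Together they had 1792 of 237621 junction reads (0.754%). Their share of the library was 0.785%, 0.601% and 0.797% in the calves, in the order of their numbers, and 0.654%, 0.71% and 0.986% in the adults. The Wilson 95% intervals, which cover counting error only, ran from 0.53% to 0.895% over the calves and from 0.577% to 1.09% over the adults. The groups overlapped, with means of 0.728 ± 0.11% in calves and 0.783 ± 0.178% in adults (SD, n = 3 each). This share was not tested, since the set was chosen with earlier results known. Of the 165 circRNAs, 42 (25.5%) were read in both ages, 52 (31.5%) in calves only and 71 (43%) in adults only, against 31.3%, 30.4% and 38.3% of all 14274. A single library held all reads of 103 of them (62.4%, against 56.4% of all circRNAs annotated to 1 gene), and 63 had 2 reads in all. The 10 most abundant held 46.9% of the reads.

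By role, the reads were spread over the matrix rather than held by 1 family. Glycoproteins and proteoglycans gave 22 circRNAs and 437 reads, laminins 37 and 379, integrin alpha chains 19 and 267, collagens 26 and 220, and the PDGF genes 4 and 172. ADAMTS proteases gave 33 circRNAs and 165 reads, ADAMTS-like genes 11 and 89, integrin beta chains 8 and 50, and fibrillins 2 and 4. The main fibrillar collagen genes of connective tissue were almost absent: COL1A1 had 2 reads in calf 2, and COL1A2 and COL3A1 had no circRNA. DCN, SPARC and FBN1, abundant matrix genes of fibroblasts, had 3, 2 and 2 reads, and the second fibrillin gene, FBN2, had 2.

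**Figure D1:**
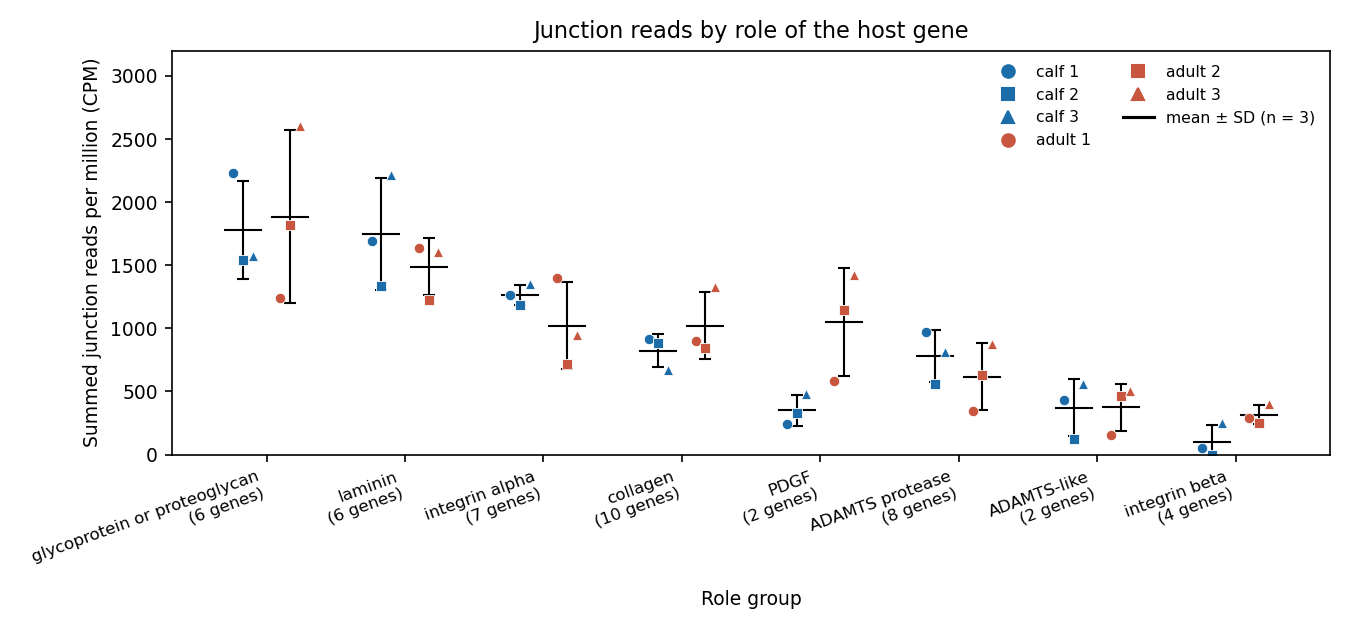
Summed junction reads per 1000000 (CPM, vertical axis) of the circRNAs of each role group, for 8 groups with at least 50 reads. Points are libraries and bars the mean ± SD (n = 3 in each age), and the PDGF adults (580 to 1426 CPM) lie above the calves (242 to 477 CPM), while the integrin beta groups, on 50 reads, nearly touch (254 to 400 against 0 to 253 CPM).

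Few of these circRNAs could be tested. After the filter on low counts, 6 of the 165 circRNAs entered the comparison of the ages (661 reads, 36.9% of the set), and 159 did not. One of the 6 passed an adjusted p of 0.05 in the quasi-likelihood test of edgeR, where 19.0% of all 663 tested circRNAs passed (8.60% higher and 10.4% lower in adults). On reads summed per host gene, 10 of the 50 gene identifiers entered and 1 passed, against 12.4% of all 719 tested host genes (5.84% higher, 6.54% lower). With so few members tested, 1 call in 6 or in 10 is near these shares. CPM of all adults lay above all calves in 3 of the 6 circles and below them in 1, against 16.7% and 22.6% of all tested circRNAs, and in 2 and 3 of the 10 hosts, against 15.2% and 18.4% of all tested hosts. The median log2 change, adult minus calf, was 0.31 over the 6 circRNAs and -0.02 over the 10 hosts, beside 0.00 and 0.01 over all tested. None of the 165 is in the authors' deposited lists of circRNAs that were lower (48) or higher (33) in adults.

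**Figure D2:**
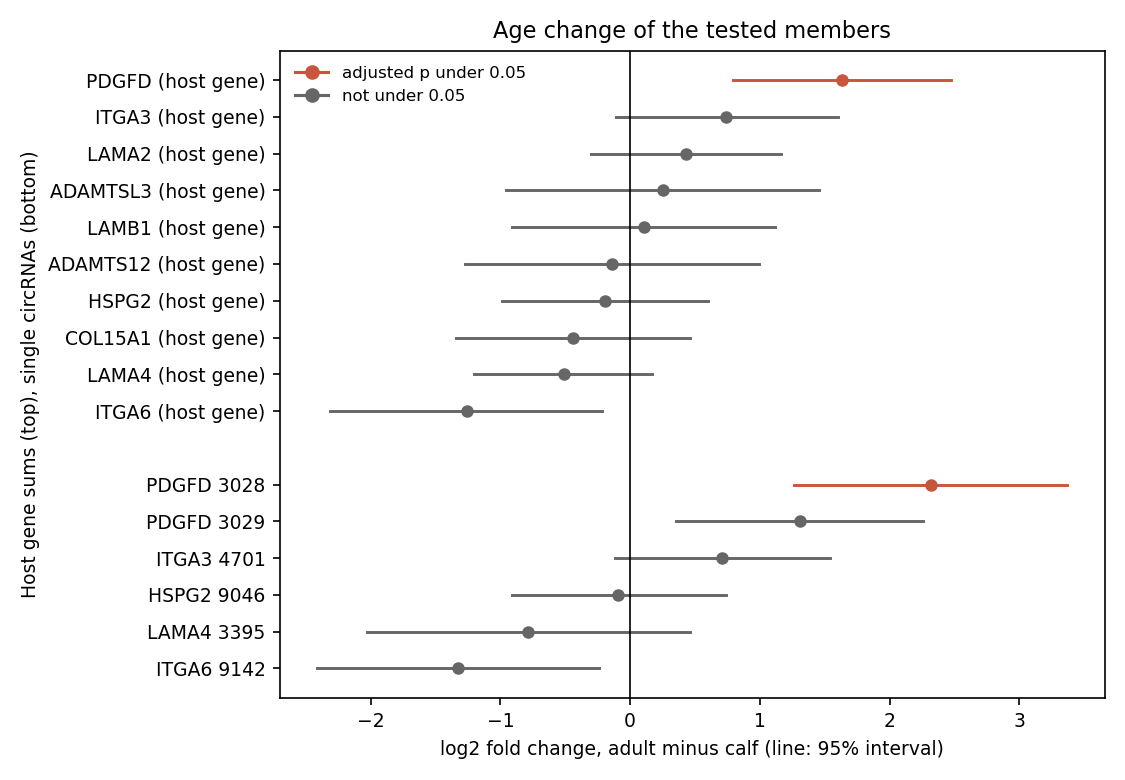
Log2 fold change, adult minus calf, of the 10 tested host genes (top) and the 6 tested single circRNAs (bottom, labelled with the end of their names), with 95% intervals of the edgeR fit. The PDGFD host gene and PDGFD novel_circ_0003028 pass an adjusted p of 0.05, and ITGA6 is the lowest estimate in both blocks.

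Junction reads of PDGFD were higher in adults, in 1 of its circles and in the host sum. PDGFD, which codes for the PDGF-D ligand, lies on chromosome 15, forward strand, and gave 3 circRNAs (coordinates here and below are as deposited, on a genome build that the sources used here do not give). The longer of its main pair, novel_circ_0003028 (4691876 to 4697627), had 3, 5 and 5 reads in calves 1, 2 and 3 against 12, 26 and 32 in adults 1, 2 and 3. Every adult was above every calf. Its mean went from 116 ± 31.3 to 556 ± 242 CPM (SD, n = 3 each), a log2 change of 2.32 ± 0.48 (SE, 95% interval 1.26 to 3.37, edgeR adjusted p = 0.00666). It passed when each library was left out in turn, and did not pass with limma-voom (2.16, adjusted p = 0.155). Its reads in every calf were too few for the filter on low counts, so it entered the main fit only through the adults. The main call alone is therefore not read as a change. Without a filter it also passed (log2 change 2.29, edgeR adjusted p = 0.00705).

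The second PDGFD circle, novel_circ_0003029 (4691894 to 4697627), had 6, 8 and 9 reads in calves and 10, 26 and 25 in adults. Again no adult lay within the calves, but adult 1 was close to calf 3, and the log2 change of 1.31 ± 0.43 (SE, 95% interval 0.35 to 2.26) had an edgeR adjusted p of 0.0568. Without adult 1 it passed (1.61, adjusted p = 0.0397). This circle too entered the main fit only through the adults. The remaining circle, novel_circ_0003030, had 3 reads in calf 3.

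Summed over its circles, PDGFD had 9, 13 and 17 reads in calves and 22, 52 and 57 in adults. The host mean was 349 ± 119 CPM for calves and 1035 ± 427 CPM for adults (SD, n = 3 each), with a log2 change of 1.63 ± 0.39 (SE, 95% interval 0.79 to 2.47, edgeR adjusted p = 0.0143). With 3 libraries per age the host call was not robust to each of them: the adjusted p was 0.0662 without calf 1, 0.0859 without calf 2 and 0.0562 without adult 2, with log2 changes of 1.39 to 1.59. Leaving out the 2 libraries numbered 3 together, a choice made after the data were seen, gave an adjusted p of 0.0305.

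**Figure D3:**
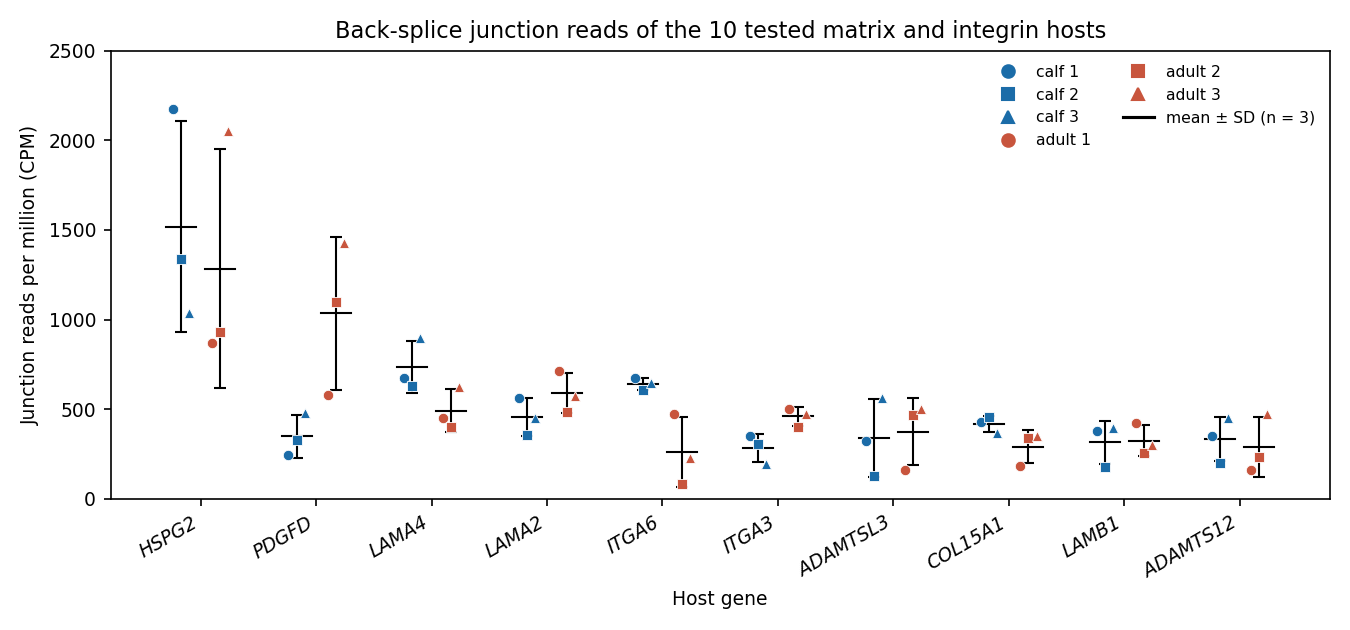
Junction reads per 1000000 (CPM, vertical axis) of each of the 10 tested host genes in the 6 libraries, with the mean ± SD (n = 3 in each age). Adults lie above calves without overlap for PDGFD and ITGA3, and below them for ITGA6, LAMA4 and COL15A1, of which only PDGFD passed the test.

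The 2 PDGFD circles are nearly the same molecule. Their starts are 18 bases apart, their end is shared, and the annotation gives both exon 2 (187 bases), intron 2 (5365 bases) and exon 3 (181 bases). The shorter circle begins exactly at the listed start of exon 2, and the longer one 18 bases before it. Whether the authors' caller could place reads of 1 junction at both starts was not tested. With such neighbouring junctions summed, an alternative added after the data were seen, the pair had a log2 change of 1.77 ± 0.38 (SE, edgeR adjusted p = 0.0082).

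The longer circle's part of the pair's reads was 33.3%, 38.5% and 35.7% in the calves and 54.5%, 50% and 56.1% in the adults. The means were 35.8 ± 2.57% and 53.6 ± 3.19% (SD, n = 3 each), a difference of 17.7 percentage points. The two-sided exact permutation p was 0.1, the smallest that 20 assignments allow. This measure was chosen after its values were seen, and the calf libraries rest on 9 to 14 reads each (the Wilson 95% interval of calf 1 is 12.1% to 64.6%).

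**Figure D4:**
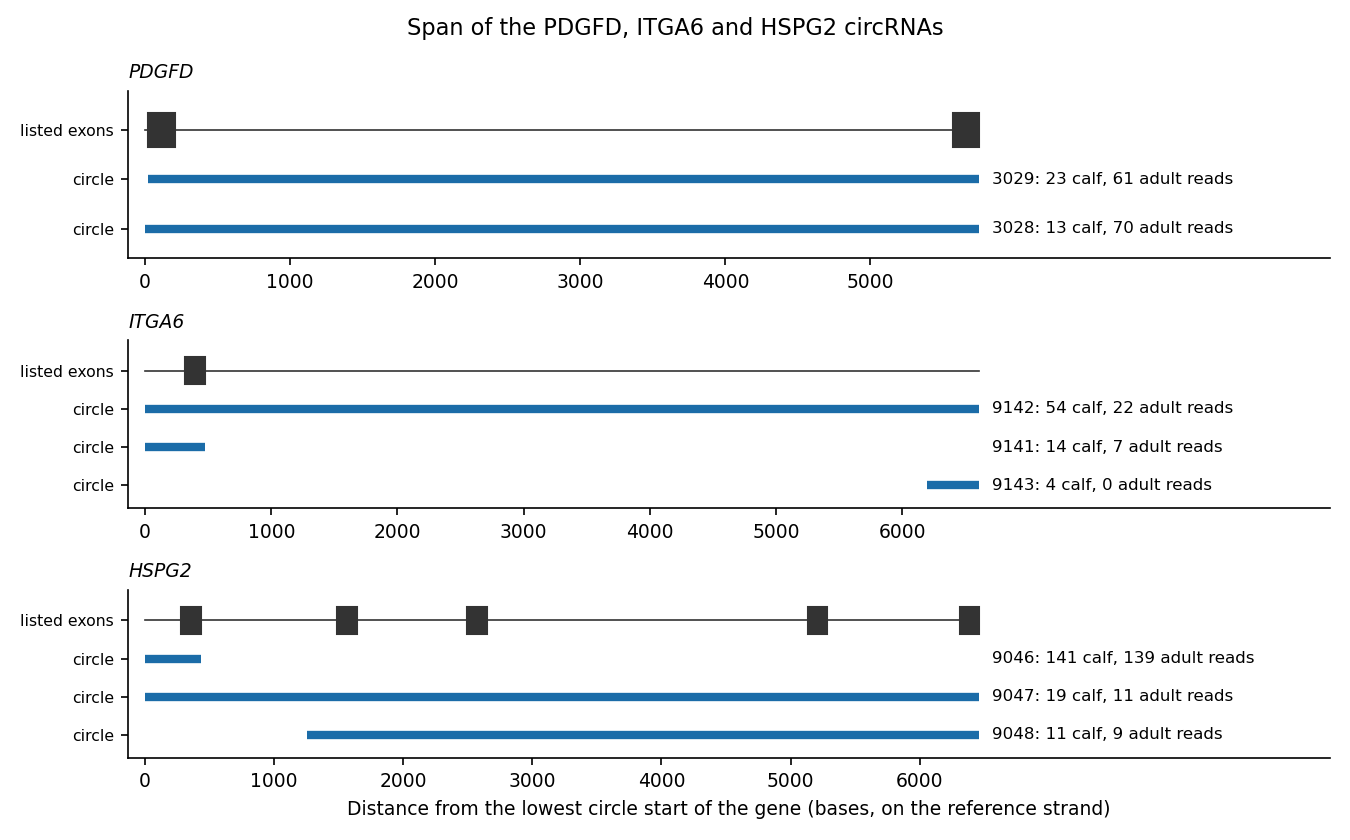
Position of the PDGFD, ITGA6 and HSPG2 circles (blue lines) and of the exons that the deposited annotation lists inside them (black boxes), in bases from the lowest circle start of each gene. Labels give the end of each circRNA name with the summed reads of calves and adults, and circles that reach beyond the drawn span (novel_circ_0003030 of PDGFD, novel_circ_0009144 of ITGA6) are left out.

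Reads of the PDGFD locus other than junction reads also had higher counts in adults. The authors list 37, 43 and 27 non-junction reads for both circles in the calves, and 66, 135 and 101 in the adults. The sources used here do not say what was counted as a non-junction read, nor is it certain whether these libraries were treated with RNase R, which digests linear RNA. Per 100 non-junction reads, novel_circ_0003028 had 8.11, 11.6 and 18.5 junction reads in calves and 18.2, 19.3 and 31.7 in adults. Its log2 ratio change of 0.68 ± 0.52 (SE) did not pass (limma adjusted p = 0.626). For novel_circ_0003029 the change was -0.29 ± 0.52 (SE, limma adjusted p = 0.86).

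The receptors of this ligand gave almost no circRNA. PDGFRB had 1 circle with 2 reads, in adult 2, and PDGFRA had none. Summed reads of marker genes of several cell types are described here, and the sums were not tested. No smooth muscle, pericyte, fibroblast or progenitor marker could be tested. The tested endothelial markers FLT1 and ENG did not pass (edgeR adjusted p = 0.405 and 0.346). Summed over smooth muscle and pericyte markers (4 of 7 with reads, CNN1, RGS5 and CSPG4 at 0), calves had 0, 101 and 56.2 CPM and adults 158, 507 and 275 CPM. TAGLN had 4, 14 and 4 reads in adults against 2 in calf 2, and MYH11 had 2, 8 and 7 against 2 in calf 3. ACTA2 had 2 reads in calf 2 only, and NOTCH3 had 2 in adult 2 only. Over fibroblast and progenitor markers (5 of 10 with reads, each of the 5 itself a matrix or integrin host described here) calves had 0 to 168 CPM and adults 52.7 to 300 CPM, but COL6A3 alone gave 25 of the adult reads, and DCN, COL1A1 and FBN1 were read in calves only. Endothelial markers (6 of 9 with reads) had 1155 to 1238 CPM in calves and 1351 to 1670 CPM in adults, with VWF, ENG and PECAM1 at a higher mean in adults and FLT1, KDR and TEK at a lower one.

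Of the 3 tested fat cell markers, 2 passed with fewer reads in adults, beside 6.54% of all tested hosts lower in adults. ACACA, the fatty acid synthesis gene of acetyl-CoA carboxylase, had 40, 43 and 23 reads in calves and 3, 2 and 5 in adults (log2 change -3.44 ± 0.46 SE, edgeR adjusted p = 0.0015, and 0.0725 with limma-voom). ACACA entered the main fit only through the calves, so that call is not read as a change. PPARG, the master regulator of fat cell formation, had 51, 48 and 75 reads in calves and 27, 38 and 18 in adults (-1.17 ± 0.32 SE, edgeR adjusted p = 0.0278, and 0.0551 to 0.0905 without calf 3 or any 1 adult). CD36, the third tested, went the other way and did not pass. It had 34, 50 and 56 reads in calves and 90, 76 and 105 in adults (log2 change 0.87 ± 0.27 SE, edgeR adjusted p = 0.0535). It passed without calf 3 (edgeR adjusted p = 0.0379) and without adult 2 (0.0441). Of those not tested, LPL had 6, 0 and 7 reads in calves and none in adults. ADIPOQ had 2, 6 and 4 in calves and 4 in adult 1, and DGAT2 and PLIN4 were read in adults only (6 and 2 reads). ADGRE1 rose, with 2, 9 and 16 reads in calves and 44, 72 and 457 in adults (4.30 ± 0.87 SE, edgeR adjusted p = 0.00582, 0.0541 without calf 2 and 0.178 with limma-voom; 2.56 without adult 3). The part of these cell markers in the PDGFD result was not tested.

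Of the 10 tested hosts, the integrin alpha chains ITGA6 and ITGA3 had the widest differences after PDGFD, in opposite directions, and neither passed. ITGA6 codes for the alpha 6 chain, a laminin receptor chain. Its main circle, novel_circ_0009142 (chromosome 2, reverse strand, 24154098 to 24160709), had 19, 18 and 17 reads in calves and 13, 4 and 5 in adults. Every adult was below every calf, and adult 1 was nearest to them. The mean was 481 ± 28 CPM for calves and 184 ± 139 CPM for adults (SD, n = 3 each), with a log2 difference of -1.33 ± 0.49 (SE, 95% interval -2.41 to -0.24, edgeR adjusted p = 0.0822).

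Adult 1 decided the ITGA6 call: without it the circle had a log2 change of -2.08 (edgeR adjusted p = 0.031). The ITGA6 host sum had 25, 24 and 23 reads in calves and 18, 4 and 9 in adults, with a log2 difference of -1.26 ± 0.48 (SE, edgeR adjusted p = 0.0996), and -1.99 without adult 1 (adjusted p = 0.0276). Non-junction reads of the main circle, in contrast, were 98, 75 and 73 in calves and 44, 125 and 148 in adults. Its junction reads per 100 non-junction reads were 19.4, 24 and 23.3 in calves, 29.5 in adult 1, and 3.2 and 3.38 in adults 2 and 3. Adult 1 thus had the highest value of the 6 and the other adults the lowest ones, and the log2 ratio change of -1.71 ± 0.61 (SE) had an unadjusted p of 0.0131 and a limma adjusted p of 0.224. A shorter circle, novel_circ_0009141 (14 calf and 7 adult reads), shares its lower-coordinate end with the main one, and novel_circ_0009143 (4 calf reads) shares the other.

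ITGA3 codes for the alpha 3 chain, likewise a laminin receptor chain. Its circle novel_circ_0004701 (chromosome 19, reverse strand, 37215181 to 37215782, 601 bases) had 13, 12 and 7 reads in calves and 19, 19 and 17 in adults. In CPM the groups did not overlap, at 283 ± 78.4 for calves and 443 ± 51.7 for adults (SD, n = 3 each), but the log2 difference of 0.71 ± 0.38 (SE, 95% interval -0.12 to 1.54) did not pass (edgeR adjusted p = 0.223). It was the second most abundant circle of the set. The authors list a single non-junction read for it over the 6 libraries, against 87 junction reads.

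Among the other alpha chains, ITGA1, a collagen receptor chain, gave 7 circles with 5, 9 and 10 reads in calves and 9, 3 and 10 in adults. Its novel_circ_0005855 (chromosome 20, 26190988 to 26212802) had 3, 6 and 3 reads in calves and none in adults, while 5 of its other 6 circles were read in adults only. ITGA4, a chain of leukocyte integrins, had 4, 0 and 8 reads in calves and 4 in adult 2 alone. ITGA2, ITGA8 and ITGA9 were each read in 1 library, with 2 to 7 reads.

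Integrin beta chains had more reads in adults but too few for the test. Over ITGB1, ITGB4, ITGB5 and ITGB8, calves had 2, 0 and 9 reads and adults 11, 12 and 16, or 102 ± 133 and 315 ± 76.4 CPM (SD, n = 3 each). ITGB4, which codes for the partner of the alpha 6 chain, gave 27 of these 50 reads, with 2, 0 and 5 in calves and 9, 9 and 2 in adults. Its exonic circle novel_circ_0004872 (chromosome 19, 56477747 to 56478151, exon 30) had 25 junction reads beside 24 non-junction reads. ITGB1, the common partner of the matrix-binding alpha chains, had 9 reads, 3 in adult 2 and 6 in adult 3.

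HSPG2, the perlecan gene, was the main host of the set and was as variable within an age as between the ages. It held 18.4% of all matrix and integrin reads. Its circle novel_circ_0009046 (chromosome 2, forward strand, 131562371 to 131562801, with exon 56) had 66, 43 and 32 reads in calves and 31, 38 and 70 in adults. Calf 1 and adult 3 were the high libraries. The mean was 1253 ± 461 CPM for calves and 1124 ± 543 CPM for adults (SD, n = 3 each), and the log2 difference of -0.09 ± 0.38 (SE, edgeR adjusted p = 0.883) had a 95% interval from -0.91 to 0.74. Its sign turned when calf 1, adult 1 or adult 2 was left out (0.22, 0.11 and 0.15).

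This perlecan circle stood out for its junction reads: it had 280, against 49 non-junction reads. Among the matrix and integrin circles with at least 10 junction reads, 3 of 41 (7.32%) had more junction than non-junction reads, namely those of HSPG2, ITGA3 and ITGB4 described above, where all circRNAs of 1 gene had 116 of 3036 (3.82%). These 3 are short, with spans of 430, 601 and 404 bases against a median of 6321 in the set. The part of length in their read counts was not tested. A longer HSPG2 circle, novel_circ_0009047, shares the start of novel_circ_0009046 and spans to exon 66, with 19 calf and 11 adult reads. The last, novel_circ_0009048, shares the end of that one, with 11 calf and 9 adult reads. The nidogen gene NID1, whose protein bridges laminin and collagen IV, had 2, 8 and 12 reads in calves and 7, 4 and 12 in adults over 7 circles.

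Laminin genes gave many circles at low counts, and the 3 tested hosts did not pass (unadjusted p from 0.129 to 0.823). LAMA4, the alpha 4 chain of vessel and fat cell basement membranes, gave 11 circles, the most of the set. It had 25, 25 and 32 reads in calves and 17, 19 and 25 in adults, a log2 difference of -0.51 ± 0.32 (SE, 95% interval -1.20 to 0.17, edgeR adjusted p = 0.325). Its main circle, novel_circ_0013395 (chromosome 9, 38765147 to 38767039, exon 17), had 10, 10 and 12 reads in calves and 10, 3 and 6 in adults (log2 difference -0.79 ± 0.57 SE, edgeR adjusted p = 0.356). The start 38783446 was used by 3 LAMA4 circles, which held 32.9% of the reads of this gene.

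LAMA2, the alpha 2 chain known for its role in muscle, gave 10 circles with 21, 14 and 16 reads in calves and 27, 23 and 23 in adults. The host sum did not pass (log2 difference 0.43 ± 0.33 SE, edgeR adjusted p = 0.439), but its circles did not go one way. The exonic circle of exon 3, novel_circ_0013535 (chromosome 9, 68178494 to 68178737, 243 bases), had 0, 0 and 8 reads in calves and 8, 14 and 18 in adults, and did not pass the filter on low counts. Without a filter it did not pass (log2 difference 2.15 ± 0.75 SE, edgeR adjusted p = 0.199). Without calf 3 the calves are at 0 and it enters only through the adults, so the call it then gets (adjusted p = 0.0161) is not read as a change. A circle of exon 1, novel_circ_0013533, had 7, 5 and 3 reads in calves and 6, 3 and 3 in adults, and novel_circ_0013536 had 5 reads each in calves 1 and 2 and none elsewhere.

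LAMB1, the beta 1 chain, had 14, 7 and 14 reads in calves and 16, 12 and 12 in adults (log2 difference 0.11 ± 0.47 SE, edgeR adjusted p = 0.907, turning to -0.20 without calf 2 and -0.10 without adult 1). Its circle novel_circ_0010532 had 14 of its 22 calf reads in calf 3. LAMC1, the gamma 1 chain found in most laminins, had 3, 7 and 4 reads in calves and 0, 4 and 2 in adults under its main identifier, on chromosome 16. The identifier on chromosome 22 had 2 reads in adult 3, and whether it is the same gene was not tested. LAMA3, the alpha 3 chain of epithelial basement membranes, had 13 reads in calf 3 and none in another library, and LAMA5 had 2 reads in adult 1.

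Among collagens, only COL15A1 was abundant enough for the host test. COL15A1 codes for a collagen next to basement membranes and had 16, 18 and 13 reads in calves and 7, 16 and 14 in adults (417 ± 46.4 and 291 ± 92.5 CPM, SD, n = 3 each). The log2 difference was -0.44 ± 0.41 (SE, 95% interval -1.34 to 0.46, edgeR adjusted p = 0.529). The reads came from 2 circles that do not overlap, with starts 59852 bases apart on chromosome 8. The upstream one, novel_circ_0013004 (64474399 to 64484817), had 11, 10 and 11 reads in calves and 3, 6 and 3 in adults, while novel_circ_0013007 (64534251 to 64538627, exon 41) had 5, 8 and 2 in calves and 4, 10 and 11 in adults.

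The upstream circle's part of the COL15A1 reads was 68.8%, 55.6% and 84.6% in calves and 42.9%, 37.5% and 21.4% in adults. The groups did not overlap, with means of 69.6 ± 14.6% and 33.9 ± 11.2% (SD, n = 3 each) and a two-sided exact permutation p of 0.1, the smallest 20 assignments allow. This measure too was chosen after its values were seen. Neither circle passed the filter for the single-circle test. Without a filter, novel_circ_0013004 had a log2 difference of -1.50 ± 0.74 (SE, edgeR adjusted p = 0.417).

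COL5A1, a fibrillar collagen chain that sets fibril width, had 1 circle, novel_circ_0000794, with 3, 6 and 4 reads in calves and 4, 6 and 12 in adults. COL5A3 had 4, 5 and 0 reads in calves and 10, 2 and 2 in adults, and COL5A2 had 4 reads in calf 2. COL6A3, a chain of the collagen VI network around fat cells, had 0, 0 and 3 reads in calves and 2, 11 and 12 in adults. The fibril-associated collagens COL12A1 and COL14A1 each had 2 reads in calf 3, against 10 and 11 in the adults. The basement membrane collagens COL4A1 and COL4A2 had 7 and 4 reads in calf 1, none in the other calves, and 4 reads each in the adults.

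ADAMTS proteases gave 33 circles, and the ADAMTS-like genes, which lack the protease domain, gave 11. ADAMTS12 gave 10 circles with 13, 8 and 16 reads in calves and 6, 11 and 19 in adults (log2 difference -0.14 ± 0.52 SE, edgeR adjusted p = 0.901). ADAMTSL3 gave 10 with 12, 5 and 20 reads in calves and 6, 22 and 20 in adults (0.25 ± 0.56 SE, edgeR adjusted p = 0.826). Calf 2 was the low calf and adult 1 the low adult for both genes, and the sign turned for both when single libraries were left out. The end 24655012 was shared by 5 ADAMTSL3 circles, which held 70.6% of its reads, and no other position was used by as many circles of 1 host in the set.

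Of the remaining ADAMTS proteases, several were read mostly at 1 age, at counts under the filter. ADAMTS20 had 17, 5 and 8 reads in calves, and 4 in adult 3 only. ADAMTS16 (6, 2 and 3) and ADAMTS19 (0, 4 and 2) were read in calves and not in adults. ADAMTS18 was read in adults only, with 5, 11 and 6 reads over 5 circles, of which 3 share the start 4598002. Without a filter the ADAMTS18 host sum passed (edgeR adjusted p = 0.0271), and ADAMTS20, ADAMTS16 and ADAMTS19 did not (0.0746, 0.303 and 0.541). ADAMTS18 entered that fit only through the adults, so the call is not read as a change. In the same fit 132 of all 4700 hosts passed, and 3 of the 50 of this set. ADAMTS3, ADAMTS10 and ADAMTS15 had 13, 4 and 2 reads, and ADAMTSL1 had 4 in calf 1.

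SVEP1, a large adhesion glycoprotein gene, had 0, 0 and 4 reads in calves and 5, 17 and 10 in adults over 8 circles, and did not pass without a filter (log2 difference 2.75 ± 0.95 SE, edgeR adjusted p = 0.109). TNC, which codes for tenascin C, a glycoprotein of remodelling tissue, had no read in calves, 2 in adult 1, 19 in adult 2 and none in adult 3. Without a filter TNC passed (edgeR adjusted p = 0.0445), with most of its reads in the library that stood apart in muscle marker genes. TNC too entered that fit only through adult reads, so the call is not read as a change. The part of that library's makeup in the TNC value was not tested.

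There were 6 circles read in all 3 libraries of 1 age and in none of the other. Those read in calves came from LAMC1 (novel_circ_0003562, with 3, 5 and 2 reads), ITGA1 (novel_circ_0005855, given above) and ADAMTS20 (novel_circ_0011103, with 4, 2 and 3). Those read in adults came from ADAMTS18 (novel_circ_0004259, with 2, 4 and 4 reads), COL6A3 (novel_circ_0009657, with 2, 8 and 8) and SVEP1 (novel_circ_0012649, with 5, 8 and 2). At 3 of 165 in each direction they were 1.82%, against 0.981% of all circRNAs for calves and 1.08% for adults.

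Against a floor of 3 counts per library, set for a count of 0, the folds of these circles were small. The smallest nonzero count in the table was 2, so a 0 may hide a single read and this floor may be too low. The calf mean stood at 1.21 times the floor for LAMC1 (87.7 ± 35.6 against 72.5 CPM, SD, n = 3), 1.45 times for ITGA1 and 1.11 times for ADAMTS20. The adult mean stood at 1.75 times the floor for COL6A3 and 1.46 times for SVEP1. The means rest on few reads and have no lower bound of their own, so these are not minimum folds. The ADAMTS18 circle, at 79.1 ± 24.2 CPM in adults (SD, n = 3), was under the floor of 80.2 CPM, so it has no fold. Without a filter the edgeR adjusted p was 0.131 for COL6A3, 0.317 for SVEP1 and 0.417 for the other 4, all above the threshold.

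The ratio test, junction over non-junction reads, took in 11 of the 165 circles, those with junction reads in all 6 libraries and enough non-junction reads. None passed by limma, as was the case for nearly all circRNAs (0.0935% of 1070 passed). At an unadjusted p under 0.05 there were 3 of 11, those of ITGA6, COL15A1 and LAMA2, against 148 of 1070 (13.8%). The median log2 change was -0.59 over the 11, beside -0.09 over all 1070. The median level was 8.52 junction reads per 100 non-junction reads over the 11 and 7.18 over all.

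Calf 3 weighed on this ratio, and without it 35 circRNAs of the whole table passed. LAMA4 novel_circ_0013398 had 0.606, 0.746 and 5.88 junction reads per 100 in calves and 2.38, 4.07 and 5.26 in adults. Without calf 3 it passed (log2 change 2.08 ± 0.57 SE, limma adjusted p = 0.033). HSPG2 novel_circ_0009048 had 7, 4 and 0 reads in calves and 2, 2 and 5 in adults. It entered the test only when calf 3, with no read, was left out. The call it then got (-2.51 ± 0.55 SE, limma adjusted p = 0.0062) is therefore not read as a change. LAMA2 novel_circ_0013533 had 10.3, 13.2 and 6.52 per 100 in calves, 11.1 in adult 1, and 1.78 and 1.46 in adults 2 and 3 (log2 change -1.70 ± 0.59 SE, limma adjusted p = 0.206).

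**Figure D5:**
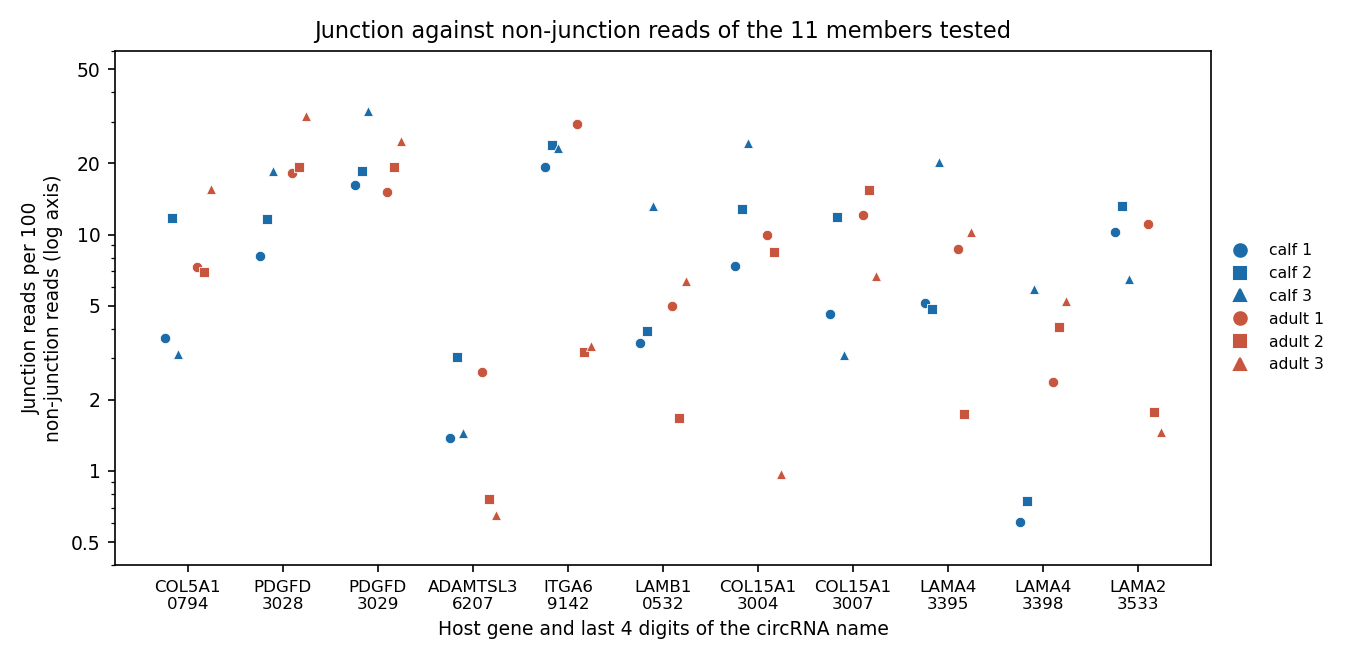
Junction reads per 100 non-junction reads (vertical, log axis) of the 11 matrix and integrin circles in the ratio test, by library. For ITGA6 novel_circ_0009142 and LAMA2 novel_circ_0013533, adult 1 lies with the calves and adults 2 and 3 lie below 4 per 100, and for ADAMTSL3 novel_circ_0006207 the same 2 adults lie below 1.

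In structure the set resembled other circRNAs of annotated genes. By the deposited classes, 64.8% spanned exons and introns, 24.8% were intronic and 10.3% exonic, against 62.6%, 28.4% and 9% of the 12150 circRNAs of 1 gene. Their median full length was 6321 bases, against 6076. A start or end shared with another circle of the same gene was seen in 53.9%, against 51.7%. No test was made of these shares, since circles of 1 gene are not independent.

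The deposited classes have a limit that touches many members. The shortest of 15519 listed exons and of 31138 listed introns was 150 bases in both cases, so shorter ones are not in the listing. Of the 41 circles classed intronic, 33 (80.5%) contained a stretch listed neither as exon nor as intron, and 34 (82.9%) had neither end inside a listed intron. The ITGA3 circle is one of the exceptions: its first 387 bases, in reference order, are unlisted and its other end lies inside listed intron 2. The 278 bases before exon 56 in the HSPG2 circle are likewise unlisted.

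A pair of wider gene lists puts these hosts in context. Of 86 other matrix genes, 31 had junction reads and 5 could be tested on the host level. Of these, 2 passed with more reads in adults and the other 3 did not pass, beside 5.84% of all tested hosts higher in adults. VCAN, the versican gene, had 2, 0 and 0 reads in calves and 39, 22 and 24 in adults (log2 change 5.11 ± 0.77 SE, edgeR adjusted p = 0.00191). ADAMTS5, which codes for a protease that cuts versican, had 3, 7 and 0 reads in calves and 31, 72 and 20 in adults (3.46 ± 0.67 SE, edgeR adjusted p = 0.00499, and 0.181 with limma-voom). Both VCAN and ADAMTS5 entered the main fit only through the adults, so these calls are not read as changes. LTBP1, TNXB and ADAMTS9 had log2 differences of 1.91, 1.44 and 1.21 (edgeR adjusted p = 0.11, 0.153 and 0.0753). LTBP1 passed with the replicate block (2.06, adjusted p = 0.0107), without a filter (0.00149) and without calf 3 (3.23, adjusted p = 0.0248), and TNXB without adult 1 (1.91, adjusted p = 0.0326).

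On the inner side of integrin adhesion, 43 of 64 genes had junction reads and 6 could be tested, of which 2 rose, beside the 5.84% of all tested hosts that were higher in adults. TNS3, the tensin 3 gene, whose protein ties integrin tails to actin, had 19, 26 and 17 reads in calves and 48, 74 and 61 in adults (log2 change 1.46 ± 0.27 SE, edgeR adjusted p = 0.00395). ARHGEF7, the gene of the exchange factor beta-PIX of focal adhesions, had 24, 24 and 31 reads in calves and 75, 70 and 60 in adults (1.29 ± 0.27 SE, edgeR adjusted p = 0.00676, and 0.0532 without calf 2). PTK2, the focal adhesion kinase gene, had 37 reads in each calf and 30, 51 and 37 in adults (-0.01 ± 0.26 SE, edgeR adjusted p = 0.98). UTRN, RAPGEF1 and DOCK1 had log2 differences of 0.54, -0.22 and 0.42 (edgeR adjusted p from 0.223 to 0.601).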

How the data were processed

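The deposited table gives, per the file headers, raw counts of junction reads for every circRNA and library; the smallest nonzero count was 2. Its deposited "TPM" column holds CPM, junction reads per 1000000 junction reads of a library. A deposited annotation gives position, class, gene, listed exons and introns and non-junction read counts. Per the file headers, the authors also compared the ages and gave a scaled signal for each, the log2 fold change and p-values. Their deposited enrichment tables give p-values. Cufflinks, TopHat, TopHat2 2.0.14 and Trim Galore are named in the submitters' processing notes. The sources used here do not give the circRNA caller, the genome build or whether counting used strand. Ribosomal RNA was removed per the labels' protocols.

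Counts were tested for age with edgeR 4.0.16 (quasi-likelihood) in R 4.3.3, after filterByExpr and TMM scaling (factors 0.9641 to 1.031), with Benjamini-Hochberg adjustment over all 663 circRNAs or 719 host genes and a threshold of 0.05. Host genes are sums over circRNAs annotated to 1 gene, which each of the 165 was. SE came from the F statistic. Junction over non-junction reads was tested with limma 3.58.1 (trended prior) on log2 ratios with a pseudocount of 0.5, centred per library, for circRNAs read in each library whose non-junction reads averaged 10 or more. The fits were also run on simulated data with the same spread set for every feature. This does not show how they behave on spread as uneven as here. Alternatives used DESeq2 1.42.0, limma-voom, other scalings, filters and pseudocounts, a replicate block and leaving out libraries. All 6 libraries were assigned to their age by the labels, which left 0 sample columns unassigned.

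The genes, the role groups, the marker and comparison lists and the tests were chosen with earlier results of these data known. The text names circRNAs and hosts that passed, the 15 most abundant circles, the tested circles and hosts, the 10 hosts with most circles, circles read in all libraries of 1 age only, and listed genes that passed. Other hosts are named to account for each role group, after their values were seen.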

Additional observations from a re-analysis of the deposited data

How the results depend on the processing

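Of 345 refits of single matrix and integrin circles or hosts, 322 kept direction and side of the threshold, 4 lost the call, 5 gained it and 14 changed sign. Most of these refits had no call to lose, since only PDGFD novel_circ_0003028 and the PDGFD host passed in the main fits. All 4 losses were theirs: the circle with limma-voom, and the host without calf 1, calf 2 or adult 2. Of 255 refits of the tested genes of the wider and marker lists, 234 kept both, 10 lost the call, 6 gained it and 5 changed sign. The count of circRNAs that passed was 126 by edgeR, 202 without a filter, 56 with the replicate block and 71 to 138 when single libraries were left out. For host genes it was 89, and 55 to 123 when single libraries were left out. For the ratio it was 1, with 2 at a pseudocount of 1, 0 without centring, 0 with the replicate block and 0 to 35 when single libraries were left out (35 without calf 3). Circles of the 165 that passed numbered 1, with 0 by limma-voom and 1 to 3 over left-out libraries. Their hosts that passed numbered 1, with 3 without a filter and 0 to 2 over left-out libraries, and their ratios 0, with 0 to 2.

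Signs turned for some hosts and circles. Over left-out libraries the log2 difference ran from -0.50 to 0.22 for HSPG2 novel_circ_0009046, -0.66 to 0.13 for the HSPG2 host, -0.65 to 0.15 for ADAMTS12, -0.17 to 0.81 for ADAMTSL3, -0.20 to 0.29 for LAMB1 and -0.12 to 0.11 for PTK2. The log2 ratio change ran from -0.57 to 0.10 for PDGFD novel_circ_0003029 and from -1.15 to 0.06 for LAMA4 novel_circ_0013395. Without calf 3 and adult 3 together, PTK2 stood at 0.07 and DOCK1 at -0.07. The cause was not tested.

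The labels give both ages the numbers 1 to 3 and do not say that a number pairs animals. Correlations of deviations from the age means were -0.0492, 0.0759 and 0.0235 for equal numbers, and -0.073 to 0.0422 for unequal ones. These values do not show a pairing, and with 3 libraries per age they cannot exclude one. With the block, PDGFD novel_circ_0003028 had an adjusted p of 0.029 and the PDGFD host 0.00461, and no call of a circle or host of the 165 changed. LTBP1, a gene of the wider matrix list, gained the call (2.06, adjusted p = 0.0107). Depth limits these results: 41 of the 165 circles had 10 or more reads, and the floor of 3 counts set for a count of 0 is 63.4 to 84.2 CPM in a library.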
